A study of Mus musculus with 2 samples.

Results

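Very deep CpGs are CpGs of chromosomes 1 to 19 whose read total was 2000 or more in each of 2 bisulfite libraries of mouse haploid embryonic stem cells. They were chosen by their read totals alone, and 2704 of the 997556 autosomal CpGs covered by 10 or more reads in each library met the rule. A read total this far above the median of 79 reads (A129-2) and 97 reads (AOS-14) is what sequence present in many copies would give where the reads of its copies are placed together, and the rule takes the CpGs as likely multicopy on that ground only. The line A129-2 has a 129Sv background and the line AOS-14 a C57BL/6 background. Both were made from AG-haploid embryos (taken here as androgenetic, with a single chromosome set from sperm) by cell sorting and grown in embryonic stem cell medium. Each line has 1 library, so line, strain and library cannot be told apart, and every test below is between the reads of 2 libraries, never between lines or strains. Per the labels' protocols the DNA was enriched with a capture panel for about 100 Mb of CpG islands, promoters and other regulatory sequence and read as pairs of 50 bp, while the titles name reduced representation bisulfite sequencing.

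Methylation of the cytosine in a CpG is copied to the new strand by Dnmt1 after replication, and in mammals it covers most of the genome, including most repeated sequence, where it helps to keep transposable elements silent. Much of the mouse genome is multicopy. Ribosomal RNA genes lie in tandem arrays that a reference assembly holds only in part, satellite repeats lie around centromeres, and LINE-1 and endogenous retroviral elements are scattered over all chromosomes, with mouse LINE-1 promoters built of short tandem monomers. A read from such sequence can fit many places, so the level at one place may be a mean over copies elsewhere. Embryonic stem cells can hold low methylation, and repeats then differ in how much they keep.

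The letters around each CpG in the deposited tables let short runs of sequence be read. They are written 5′ to 3′ in lower case with each CpG in capitals, because the spacing and order of these CpGs recurred from locus to locus. Units are named by the steps in bp between their CpGs, and these groups were put together after the positions and levels had been seen. The first 3 runs are forms of the 7-5-4 unit, which held most of the CpGs that differed by 25 points or more between the libraries, and the others are from groups that differed less.
7-5-4 unit, common form: tCGagtCGagCGg
7-5-4 unit, second form: tCGagtCGggCGg
7-5-4 unit, form near Olfr384: aCGagtCGagCGg
4-21 unit: gCGacCGc
5-5-8-42 unit: cCGagtCGgtcCGt
8-23-5-41 unit: cCGaaaCGa
The common form of the 7-5-4 unit spans the last 3 of its CpGs and was read in 74 of 77 units, first at chr10:5388886-5388898 on the minus strand. The second form was read in 2 units, first at chr10:74768475-74768487 on the minus strand. The form near Olfr384 was read in 1 unit, at chr11:73617332-73617344 on the plus strand. The same run was also read near Olfr322, where the unit was not complete. The 4-21 run was the same in 194 of 194 units, first at chr10:4911483-4911490 on the minus strand. The 5-5-8-42 run was the same in 7 of 7 units, first at chr10:41841869-41841882, and the 8-23-5-41 run in 7 of 7, first at chr2:20900072-20900080, both on the plus strand. All coordinates are of mm10.

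Further runs come from the ribosomal locus of chromosome 17, which held the most very deep CpGs of any locus and had low methylation. They are on the plus strand.
chr17:39844540-39844565: gcCGCGtcCGgCGCGaCGtCGgaCGt
chr17:39844764-39844784: acCGgtcCGaCGccCGagCGg
chr17:39846215-39846240: ccCGttcCGCGCGagCGccCGccCGg
chr17:39848530-39848554: ggCGttCGgtCGtCGgggCGCGCGc
The tables gave 1767 letters of the 5697 bases of this locus, and each of the 2303 letters given more than once was the same each time.

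Very deep CpGs were low in methylation in both libraries and lower in A129-2. Their mean level, methylated reads over all reads, was 20.03% in AOS-14 and 10.2% in A129-2, a difference of -9.79 points, and the medians were 12.06% and 8.27%. Over all 997556 tested CpGs the means were 14.7% and 9.35%. Where pairs of levels or reads are given below with no line named, A129-2 comes first. Levels ran from 0.0052% to 66.2% in A129-2 and from 0% to 89.3% in AOS-14. In AOS-14 347 very deep CpGs reached 50% or more (12.8%, against 5.82% of all tested CpGs). In A129-2 4 did (0.148%, against 0.966%). The counting error of a single level was small, with 95% Wilson intervals no wider than 2.14 points to either side in A129-2 and 2.19 in AOS-14. These intervals cover counting error only, since reads are not independent molecules.

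Depth classes placed these means among the others. CpGs whose smaller read total was 10 to under 100 had means of 9.42% and 14.5% (A129-2 first), those from 100 to under 500 had 9.13% and 14.95%, and those from 500 to under 2000 had 12.96% and 23.1%. The difference was thus wider in the class from 500 to under 2000, at -10.2 points, than among the very deep CpGs. Near the threshold, the 186 very deep CpGs with a smaller total of 2000 to under 2100 had means of 13.9% and 25.2%, and the 224 CpGs with 1900 to under 2000 had 12.7% and 26.9%.

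Counts of reads with and without methylation were set against each other at each CpG by a two-sided Fisher's exact test, adjusted over all tested CpGs by Benjamini-Hochberg. With a minimum difference of 25 points, 413 very deep CpGs were lower in A129-2 (15.3%), where 3.89% of all tested CpGs were. None was higher, where 0.0289% of all tested CpGs were. At an unadjusted p under 0.05 with no minimum difference, 1844 were lower (68.2%, against 19.4% of all tested CpGs) and 65 higher (2.40%, against 0.51%). With a minimum of 10 points 706 were lower (26.1%, against 11.4% of all tested CpGs) and none higher (against 0.0968%). With the adjustment but no minimum difference, 1656 were lower (61.2%, against 12.5% of all tested CpGs) and 24 higher (0.888%, against 0.146%). Great depth makes small differences pass such a test. A fall of 25 points also needs a level of at least 25% in AOS-14, and of the 774 very deep CpGs with such a level 413 were called (53.4%), against 15.6% of all tested CpGs of that level. In sign alone 2343 very deep CpGs were lower and 361 higher for A129-2, and the widest rise was 4.10 points.

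Most of the called CpGs belonged to 1 kind of sequence. CpGs in units with the steps 7-5-4 numbered 376, or 13.9% of the very deep CpGs, and held 371 of the 413 called CpGs. Their means were 17.1% for A129-2 and 60.3% for AOS-14. The 2328 very deep CpGs outside complete units had means of 9.14% and 13.5%, and 42 of them were called. Some of these 42 lay where part of the unit's steps or letters recurred. The same units held 314 of the 347 CpGs at 50% or more in AOS-14. The positions define the units and the levels do not, but the units were singled out with the levels in view, so these counts are a description.

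The 2704 CpGs fell into 429 loci when those at most 1000 bp apart were joined. A single CpG made up 115 loci, 239 held 2 to 9, and 75 held 10 or more, with 1610 of the CpGs. The median width of loci with 2 or more was 79 bp and the widest covered 5697 bp. In 415 of 429 loci the mean level was lower in A129-2.

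Loci were spread very unevenly over the chromosomes. Chromosome 10 held 287 loci and 1823 very deep CpGs, 67.4% of them, with 6.39% of the tested CpGs. Chromosome 17 held 296, of which 276 are in the ribosomal locus. Chromosome 11 held 176, chromosome 12 169 and chromosome 13 46, chromosome 7 none, and the remaining 13 chromosomes between 2 and 37 each. The deposited tables list the chromosomes in the order 10 to 19, then 1 to 9, so chromosomes 10, 11, 12 and 13 stand first in them. The very deep CpGs of chromosome 10 lay in 27 of its 27 bins of 5 Mb, along its whole length. The part of this order, of read placement and of real copy number in the count per chromosome was not tested.

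**Figure D1:**
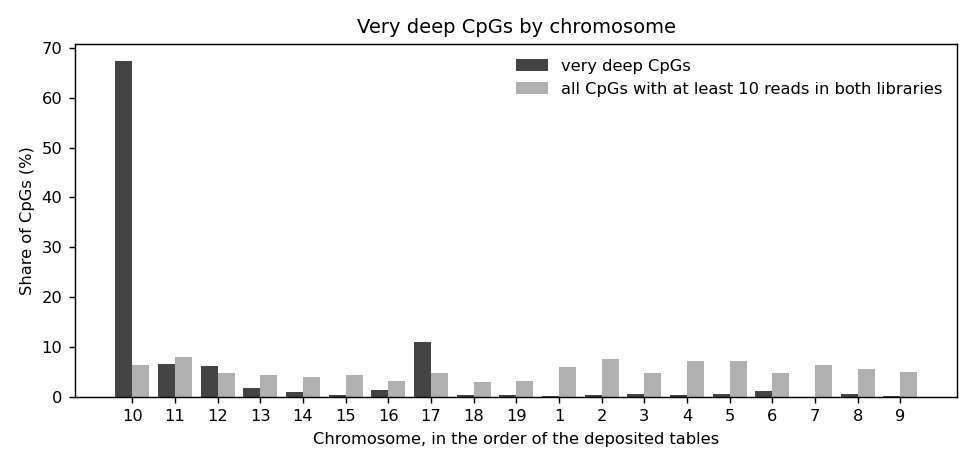
Share of very deep CpGs (dark bars) and of all tested CpGs (light bars, 10 or more reads in each library) on each autosome, in percent, with chromosomes in the order of the deposited tables. Chromosome 10, the first listed, has 67.4% of the very deep CpGs and 6.39% of the tested ones.

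Chromosome 10 also carried most of the difference. Means of its very deep CpGs were 12.1% in A129-2 against 25.4% in AOS-14, and it held 402 of the 413 called CpGs. The 881 on other chromosomes had means of 6.46% and 8.84%. Outside complete 7-5-4 units the very deep CpGs of chromosome 10 had means of 10.8% and 16.5%, with 35 called. Of the 45 loci with a called CpG, 40 were on chromosome 10.

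**Figure D2:**
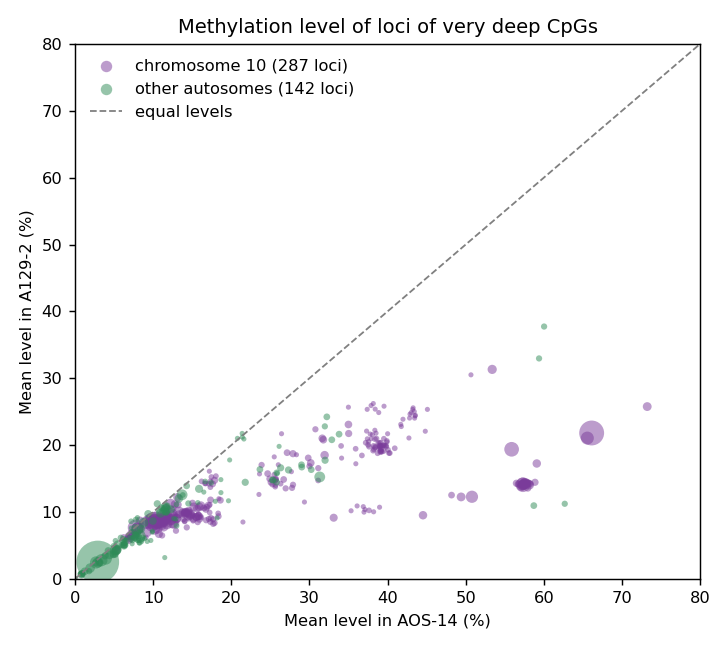
Mean methylation level of each of the 429 loci in A129-2 against AOS-14, in percent, with point area growing with the number of very deep CpGs in the locus, chromosome 10 in purple, the other autosomes in green and the line of equal levels dashed. Many loci lie near or below 20% in both libraries. On chromosome 10, 40 loci with a pair of CpGs 10 bp apart have means of 38.8% in AOS-14 and 19.6% in A129-2. Another group of chromosome 10 loci stands near 57% in AOS-14 and 14% in A129-2.

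The order of steps between CpGs recurred across loci. Of 314 loci with 2 or more very deep CpGs, 173 (55.1%) shared their complete order of steps with at least 1 other locus, and 11 orders recurred on more than 1 chromosome. The 10 named units and the shorter 7-5-4 core covered 1421 very deep CpGs (52.6%). Copies of a unit may share reads, so they are not independent, and the SD values given for them describe spread over places in 1 library each.

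The 7-5-4-29 unit has 5 CpGs, of which the first 3 are in TCGA, the fourth is in GCGG and the fifth is in CCGG. It was found 48 times in 25 loci, all on chromosome 10, and neighbouring units of a locus started 208 bp apart in 17 of 23 pairs. It stood at 14.1% ± 1.31 in A129-2 against 56.9% ± 2.01 in AOS-14 (SD, n = 48 units). The lowest and the highest unit stood at 11.2% and 21.6% in A129-2 and at 50.1% and 62.4% in AOS-14. These ranges describe copies within 1 library each, singled out with the levels in view. All 5 CpGs were called in 47 of 48 units, and 239 CpGs in all. Of all tested CpGs with at least 25% in AOS-14, 15.6% were called.

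Within this unit the level depended on the CpG. In AOS-14 the means at its CpGs, in order, were 42.8%, 50.2%, 57.7%, 68.3% and 65.5%, and the level rose at each step from the first to the fourth in 47 of 48 units. In A129-2 they were 8.63%, 11.9%, 13.7%, 13.5% and 22.6%, and 13 of 48 units rose at each of those steps. The widest mean difference was at the fourth CpG, GCGG, with -54.8 points, and the narrowest at the first, with -34.1 points. The fifth CpG, in CCGG, was the highest of the unit in A129-2 and the second highest in AOS-14.

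The 7-7-5-4 unit adds a CCGG in front of the same 4 CpGs. It was found 20 times in 3 loci of chromosome 10, with neighbours 208 bp apart in 16 of 17 pairs, and its common run was the same in 20 of 20 units. It stood at 22.1% ± 1.504 in A129-2 against 66.6% ± 1.97 in AOS-14 (SD, n = 20 units). All of its 100 CpGs were called, where 15.6% of all tested CpGs with at least 25% in AOS-14 were. The CCGG in front stood at 31.5% and 73.5%, above the CpG behind it, at 12.95% and 51.4%, in 20 of 20 units in both libraries. The last CpG, also in GCGG, had the widest mean difference of this unit, with 23.95% in A129-2 and 81.3% in AOS-14.

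**Figure D3:**
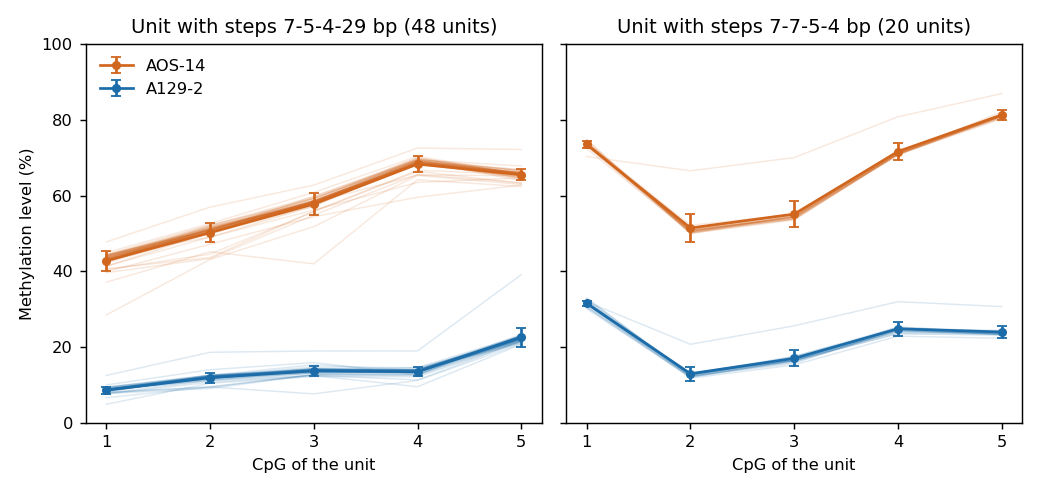
Methylation level in percent at the 5 CpGs of the 7-5-4-29 unit (48 units, left) and of the 7-7-5-4 unit (20 units, right), with AOS-14 in orange and A129-2 in blue, a thin line for each unit and points with bars for the mean and SD over units. In the left panel the means of AOS-14 run from 42.8% to 68.3% and those of A129-2 from 8.63% to 22.6%.

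The 2 unit types differed in their read ratio, the reads of A129-2 over those of AOS-14, which is 0.857 for all autosomal CpG reads. CpG reads are summed over CpGs, so a read that covers several CpGs counts at each. The 7-5-4-29 units had a mean ratio of 1.24 ± 0.0933 (SD, n = 48 units) and the 7-7-5-4 units 0.549 ± 0.0331 (SD, n = 20 units). Their ranges, 0.899 to 1.52 and 0.415 to 0.591, did not overlap. Read totals chose the CpGs, so ratios are given with no test.

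The largest locus of 7-7-5-4 units was chr10:27818677-27822653, 8.96 kb from the gene model Gm30228, with 92 very deep CpGs. Its means were 21.8% for A129-2 and 66.1% for AOS-14, from 2203 to 8872 reads per CpG in A129-2 and 5061 to 16021 in AOS-14, and all 92 were called. The locus at chr10:15625688-15626752 in Gm46188 had 21.05% and 65.6% with 23 of 23 called, and chr10:15342365-15342597, 114 kb from Gm18188, had 25.8% and 73.2% with 9 of 9 called. Their ratios, 0.553, 0.565 and 0.454, were all below that of the libraries.

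Among loci of 7-5-4-29 units the largest was chr10:35676860-35678155, 30.5 kb from Amd2, a gene of S-adenosylmethionine decarboxylase, an enzyme of polyamine synthesis. Its 30 CpGs had 4736 to 28141 reads in A129-2 and 3973 to 23078 in AOS-14, means of 14.1% and 57.3%, and all were called. Single 7-5-4-29 units 30.4 kb from Gm30853 (chr10:65938617-65938663, 14.4% and 58.9%) and 124 kb from Gm46220 (chr10:37935457-37935503, 13.6% and 57.9%) were among the 6 loci with the widest falls. Both differed by -44.4 points, with 5 of 5 called. The locus inside Otogl, a gene of an inner ear matrix protein, at chr10:107845555-107846849, had means of 19.4% and 55.9% with 26 of 30 called. At its end a 7-5-4 unit without the last CpG, from 107846832, stood apart from the rest of its kind, with 31.7%, 45.9%, 50.4% and 66.2% in A129-2 and 53.8%, 63.4%, 71.4% and 89.3% in AOS-14. Its read ratio, 0.320, was the lowest of the 77 units, with 2758 to 2799 reads in A129-2 and 8621 to 8766 in AOS-14.

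The only complete 7-5-4 unit off chromosome 10 was at chr11:73617326-73617343, 13.8 kb from the olfactory receptor gene Olfr384. Its CpGs stood at 8.60%, 8.51%, 13.1% and 13.5% in A129-2 and at 49.1%, 47.5%, 64.6% and 73.8% in AOS-14, from 2055 to 2157 reads. These levels fell within the range of the units of chromosome 10 in both libraries, except for the second CpG of A129-2, which was the lowest of the 77. The widest locus difference, -51.5 points, was at 3 CpGs of chr11:58674026-58674036, 7.48 kb from another olfactory receptor gene, Olfr322. Their letters were CCGC, TCGA and TCGT, and their levels were 11.8%, 13.1% and 8.80% in A129-2 (2210, 2222 and 2215 reads) and 74.3%, 66.4% and 47.4% in AOS-14 (2020, 2014 and 2015 reads). Read on the minus strand, the letters of this locus give the same run as the form near Olfr384. The first CpG of the 7-5-4 unit is not among its very deep CpGs, so the locus was not counted as a unit.

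The 42 called CpGs outside 7-5-4 units were in 20 loci. On chromosome 10 they included 6 CpGs of the Otogl locus at 13.0% and 44.1%, 4 near Gm6494 at 11.7% and 46.1%, and 4 near Gm9535 at 15.6% and 53.5%. A single called CpG outside 7-5-4 units, at 8.74% and 52.1%, lay in a locus 104 kb from Oprm1, which encodes the mu opioid receptor. That locus also holds a 7-5-4-29 unit and had 6 called CpGs in all. Another single called CpG, at 10.7% and 38.97%, was inside Hace1, a ubiquitin ligase gene. The 11 called CpGs of other chromosomes were the 3 near Olfr322, the 4 near Olfr384, 2 on chromosome 2 near Gm33780, 1 in Sfi1 and 1 near Gm31227 on chromosome 14 (49.2% and 76.4%).

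The 4-21 unit was the most frequent, with 194 units in 90 loci on 3 chromosomes, 190 of the units on chromosome 10. Neighbouring units started 212 bp apart in 83 of 104 pairs. Its mean was 6.58% ± 1.47 in A129-2 against 9.95% ± 4.16 in AOS-14 (SD, n = 194 units), and 182 of 194 units were lower in A129-2. None of its CpGs exceeded 21.98% in AOS-14, so none could be called lower by 25 points. Its mean read ratio, 1.38 ± 0.186 (SD, n = 194 units), was above that of the libraries. The 3-37 unit, with 73 units in 46 loci on 4 chromosomes, had 8.90% ± 1.81 and 9.56% ± 2.37 (SD, n = 73 units), with 60 of 73 units lower in A129-2. It had 0 called CpGs, and its highest level in AOS-14, 28.1%, left little room for a fall of 25 points. Together these 2 units held 801 very deep CpGs in 105 loci, with means of 7.22% and 9.85%. Units of 1 spacing were not all of 1 sequence. The most common letters were shared by 112 of 194 units at the third CpG of the 4-21 unit. For the 3-37 unit they were shared by 48 of 73 units at each CpG. Its first CpG ran from 2.52% to 24.2% in A129-2 and from 3.04% to 28.1% in AOS-14.

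Several of the loci richest in CpGs were built of these steps. The locus inside Esr1, which encodes the oestrogen receptor alpha, at chr10:4911289-4912467, had 44 CpGs at 8.69% and 10.04% (A129-2 first). The locus inside Caps2, which encodes a calcium-binding protein, at chr10:112173533-112174659, had 37 CpGs at 7.66% and 7.77%. The locus 15.6 kb from Cenpw, a gene of a centromere protein, had 33 CpGs at 9.17% and 11.3%. Those nearest to Gm8330, Gm31330, Gm7001 and Gm17779 had 24 to 28 CpGs, 8.06% to 9.01% in A129-2 and 9.84% to 10.98% in AOS-14. The highest level in AOS-14 was 22.9% to 24.97% at these 7 loci, so no CpG of them could be called lower by 25 points. The same held for the 26 CpGs at chr12:26048311-26049569, 42.4 kb from Gm29687, with 6.36% and 8.17% and at most 20.9% in AOS-14.

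Further groups had other levels. The pair of CpGs 10 bp apart, found at 40 loci of chromosome 10, had 19.6% ± 0.998 in A129-2 and 38.8% ± 1.503 in AOS-14 (SD, n = 40 units). Its mean difference of -19.2 points was short of the minimum, and 0 of its 80 CpGs were called. The CpG in CCGG stood at 27.9% and 49.1% and its partner at 11.3% and 28.5%, with the CCGG higher in 40 of 40 pairs in both libraries. The pair 48 bp apart (10 units) had 14.5% and 17.1% and the pair 30 bp apart (11 units) 8.90% and 14.6%, with 0 called in either. Their highest levels in AOS-14 were 27.6% and 30.1%, which left little room for a fall of 25 points. The 5-5-50 unit (13 units) had 15.6% and 26.6%, and the 5-5-8-42 unit (7 units) had 17.8% and 29.6%. In the latter the fifth CpG, TCGC, stood at 4.55% and 15.2%, below the other 4, which had means of 15.98% to 23.97% in A129-2 and 25.2% to 37.95% in AOS-14.

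The 8-23-5-41 unit was found at 7 loci on 6 chromosomes (2, 6, 8, 14, 16 and 18), with 2 of them on chromosome 6. Its levels were nearly alike at all of them, 4.69% to 5.09% in A129-2 and 6.22% to 6.55% in AOS-14. Its median read totals were alike as well, 8935 to 9238 in A129-2 and 12031 to 12370 in AOS-14. The CCGG at either end stood at 11.9% and 10.4% in A129-2 and 14.6% and 13.7% in AOS-14, and the 3 CpGs between at 0.593% to 1.14% and 0.824% to 1.35%. None was called.

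**Figure D4:**
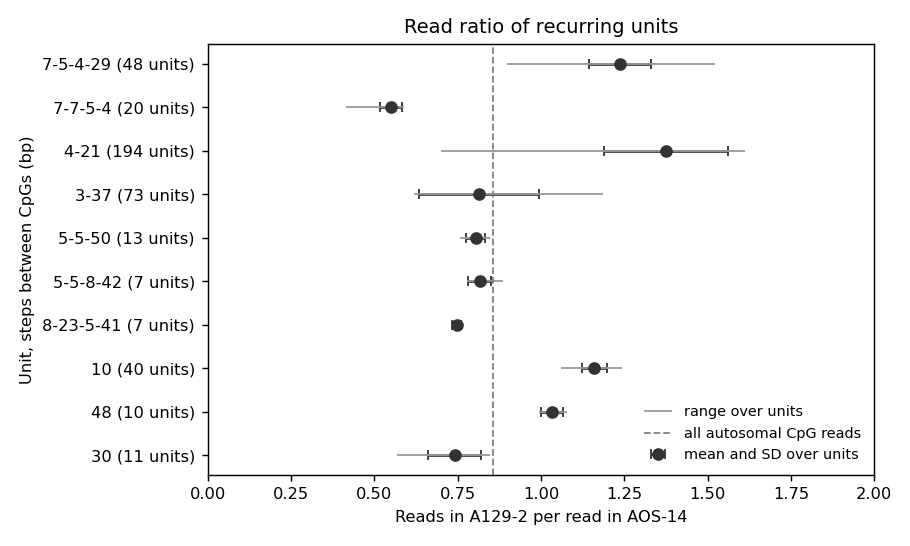
Read ratio (A129-2 over AOS-14) for each recurring unit, with points and bars for the mean and SD over units, grey lines for the range and a dashed line at the 0.857 of all autosomal CpG reads. The 7-5-4-29 and 4-21 units lie mostly to the right of the line and the 7-7-5-4 units to its left.

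The sequence around a CpG was tied to its level. CCGG, the site cut by MspI in reduced representation libraries, held 598 very deep CpGs (22.1%, against 33.3% of all tested CpGs), with means of 19.2% and 30.4% (A129-2 first). The other 2106 had means of 7.70% and 17.1%. The same gap was present among all tested CpGs, with 18.8% and 27.7% in CCGG and 4.63% and 8.26% elsewhere. TCGA held 269 very deep CpGs (9.95%, against 2.04% of tested CpGs) with means of 13.7% and 51.0%, and 228 of them were in 7-5-4 units. Reads of 1 strand made up at least 90% of the total at 54.8% of very deep CpGs in A129-2 and 53.2% in AOS-14, against 33.7% and 31.9% of tested CpGs. Whether the way the libraries were made sets the level at CCGG was not tested.

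The ribosomal locus spanned chr17:39843014-39848710, where Rn18s-rs5, an 18S ribosomal RNA sequence annotated as a pseudogene, lies at 39846354 to 39848202 and the noncoding gene AY036118 at 39848112 to 39898385. It listed 407 CpGs, of which 276 were very deep, with 2030 to 73669 reads in A129-2 and 2824 to 64069 in AOS-14. Its mean was 2.52% in A129-2 against 2.90% in AOS-14. Levels split by sequence, with 11.5% and 13.6% at the 45 CpGs in CCGG and 0.773% and 0.823% at the 231 others. The lowest CCGG, at 7.61% in A129-2, was above the highest other CpG, at 2.23%. In AOS-14 the lowest CCGG was 4.17% and the highest other CpG 3.11%.

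Differences at the ribosomal locus were small in points. In the same Fisher's test over all tested CpGs, at an adjusted p under 0.05, 71 of the 276 fell on the lower side and 7 on the higher side for A129-2 (25.7% and 2.54%, against 12.5% and 0.146% of all tested CpGs). The highest level in AOS-14 was 22.2%, so a fall of 25 points was not possible, and the widest difference was 5.35 points. In the run at 39848530, which has no CCGG, its 7 CpGs stood at 0.298% to 0.648% in A129-2 and 0.420% to 0.731% in AOS-14, from 20663 to 20809 and 14053 to 14369 reads. The run at 39846215 has 1 CCGG, which stood at 19.9% and 19.4%, and its other 6 CpGs stood at 0.461% to 1.19% and 0.595% to 1.38%. The run at 39844764 also has 1 CCGG, at 10.7% and 12.6%, while its other 4 CpGs were at most 0.680% and 0.818%.

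The reads of the libraries were not in 1 ratio along the locus. The median read ratio was 0.724 before Rn18s-rs5 (181 CpGs), 0.486 inside it (48 CpGs) and 0.798 after it (47 CpGs), and single CpGs ran from 0.357 to 2.24. The mean levels in these stretches were 2.56%, 3.19% and 1.67% in A129-2 and 2.91%, 3.75% and 2.01% in AOS-14.

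**Figure D5:**
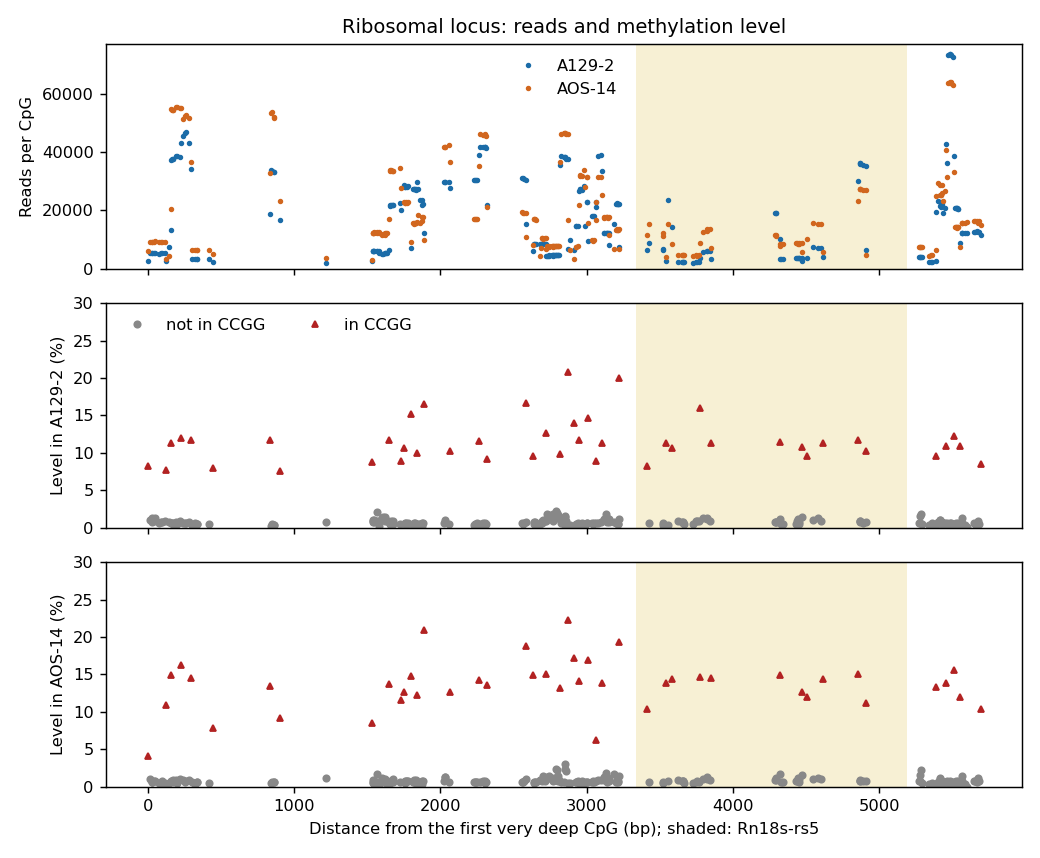
Reads per CpG (top, A129-2 in blue and AOS-14 in orange) and methylation level in percent in A129-2 (middle) and AOS-14 (bottom) at the 276 very deep CpGs of the ribosomal locus, by distance in bp from the first of them, with Rn18s-rs5 shaded. CpGs in CCGG (triangles) lie at 7.61% or more in A129-2 and 4.17% or more in AOS-14, and the others (circles) lie below them.

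A second place matched the ribosomal letters. The 10 very deep CpGs of chr6:3200878-3201423, 2.37 kb from the gene model LOC115490388, matched CpGs inside Rn18s-rs5 in spacing at 10 of 10 CpGs and in 45 of 45 letters that could be compared. Of the 98 loci with at least 8 very deep CpGs that were compared in this way, none of the others matched at more than 77.8% of CpGs or in more than 75% of letters. Its mean levels were 5.06% and 5.49%, with 3 of the 10 CpGs in CCGG, and its median read ratio was 0.448. That median joins unlike stretches, with ratios of 0.403 to 0.455 from 3200878 to 3200951 and 1.68 to 1.84 from 3201389 to 3201422. The median ratio over all 48 very deep CpGs of Rn18s-rs5 was 0.486.

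The deepest CpGs of the data were 3 on chromosome 2, 36.1 kb from the gene model Gm33780, in a stretch of mm10 that is often masked for its excess of reads. At 98666262, in CCGG, 802290 reads gave 41.1% in A129-2 and 1722673 reads gave 69.3% in AOS-14. At 98666272 2053871 reads gave 22.5% and 4531427 reads gave 47.4%. At 98666503, in CCGG, 1411488 reads gave 35.4% and 3054426 gave 61.5%. The first was read on the plus strand only and the last on the minus strand only. Both CCGG sites were called lower in A129-2, by 28.2 and 26.1 points, and the CpG between them differed by -24.99 points. These 3 CpGs held 16.9% of the very deep reads in A129-2 and 30.7% in AOS-14, which is 2.87% and 5.36% of all autosomal CpG reads, and their ratio was 0.453 to 0.466.

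Read ratios of single CpGs ran from 0.208 to 3.36 with a median of 1.095. The median over all tested CpGs was 0.806, and that of the very deep CpGs was 1.205 on chromosome 10 and 0.915 on the other chromosomes. Of the 2704, 875 were above 1.5 times the ratio of the libraries and 43 below 0.5 times it. These shares were not counted over all tested CpGs, but the spread of ratios was wider there, from 0.0117 to 48.1. With the same small share of CpGs left out at each end, ratios ran from 0.445 to 1.78 for the very deep CpGs. Over all tested CpGs they then ran from 0.297 to 2.31. The tested CpGs include totals as low as 10 reads, and the very deep CpGs were chosen by their totals, so the 2 spreads are not like for like. Among loci with 2 or more CpGs the highest ratio, 3.13, was near Gm40690 (chr10:72008012-72008474, 7 CpGs, 9.13% and 33.1%), followed by the loci nearest to Gm49186, Gm11100, Gm8797, Gm9700 and Gm22945, with 1.802 to 1.98. The lowest, 0.333, was inside Lama2, which encodes a laminin chain of muscle basement membrane (2 CpGs, 19.4% and 35.9%). After it came 1700020G17Rik with 0.380, Gm23852 with 0.437, LOC115490388 with 0.448 (a median over unlike stretches, as above), Gm18188 with 0.454 and Gm40742 with 0.457. Both high and low ratios were found at low and at high levels.

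Very deep CpGs were less often in annotated genes than other CpGs, 37.2% against 73.1% of tested CpGs. Of the 429 loci 160 (37.3%) overlapped a gene, 50 more were within 10 kb of one, and the median distance of those outside was 30.5 kb. A further list held 2476 genes, chosen for copy number variation, recent copies or only a shared name start such as Zfp or Olfr. Of these 11 had a very deep CpG within 10 kb. Small RNA genes had 2 of 1655, n-TEctc9, a transfer RNA gene, with 6 CpGs at 23.1% and 34.99%, and Mir1929, with 1 CpG at 20.95% and 37.9%. Of the 2 genes of the ribosomal RNA list in the annotation none had one, since Rn18s-rs5 was not on that list.

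Sfi1, which encodes a centrin-binding protein of the spindle poles, held 15 CpGs at chr11:3193348-3193484 with means of 15.2% in A129-2 and 31.3% in AOS-14. This run of it ends at the locus' last CpG.
chr11:3193469-3193485: aaCGCGaccCGCGcCGg
Its 5 CpGs stood at 12.6%, 19.8%, 14.7%, 10.4% and 39.04% in A129-2 and at 32.4%, 45.7%, 30.6%, 26.9% and 53.6% in AOS-14, and the second of them was called. The same CpGs lie 8.86 kb from Eif4enif1, which encodes a transporter of a translation initiation factor.

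The pseudogenes Pisd-ps1 on chromosome 11 and Pisd-ps2 on chromosome 17, copies of a phosphatidylserine decarboxylase gene, each had 1 very deep CpG in CCGG. That of Pisd-ps1 (3124113) had 6.97% of 2739 reads in A129-2 and 9.86% of 2423 in AOS-14. That of Pisd-ps2 (3083978) had 7.12% of 2810 and 9.92% of 2449. Both levels of one lie inside the 95% Wilson intervals of the other, 6.22% to 8.13% and 8.80% to 11.2% for Pisd-ps2.

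Other genes of this list gave levels of the kinds above, though a shared name start does not show that a gene has copies. Zfp385c, a zinc finger gene, held 5 CpGs at 17.7% and 32.0%, which are the means of a locus with the steps 5-5-8-42. Zfp277, another zinc finger gene, held 1 at 7.59% and 7.20%. Olfr785 had 7 CpGs within 10 kb at 9.24% and 15.5%, Olfr787 had 1 at 6.48% and 7.45%, and Speer5-ps1 had 1 at 21.5% and 38.1%. The locus near Olfr322 is also within 10 kb of Olfr320.

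At Cdk8, which encodes a kinase of the Mediator complex, 14 CpGs had means of 2.46% and 2.93% (A129-2 first). Its first 4 CpGs differ in level, in the letters around them and in the strands that were read.
chr5:146261010-146261024: ccCGgCGcCGctCGt
The first, in CCGG, stood at 20.5% of 4792 reads in A129-2 and 21.3% of 9772 in AOS-14, and all of these reads were of the plus strand. The next, 3 bp on, stood at 0.804% of 31724 and 1.38% of 37107, with 4800 and 9853 of these reads on the plus strand. The 2 after it were below 1% in both libraries. Letters and strands changed together at the first of these CpGs, and which of them goes with the level was not tested. At 146261059, not in CCGG, 26 of 27222 reads in A129-2 and 86 of 27251 in AOS-14 were of the plus strand, and the levels were 0.459% and 0.650%.

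A few very deep CpGs were almost free of methylation. In Wars, which encodes tryptophanyl-tRNA synthetase, a CpG in CCGG had 1 methylated read of 2339 in A129-2 (95% Wilson interval 0.0075% to 0.242%) and 2 of 3632 in AOS-14 (0.015% to 0.201%). In Taco1, a gene of mitochondrial translation, a CpG at chr11:106066822 had 2 of 10617 and 0 of 15017 reads. Taking 3 reads as the limit that a count of 0 allows, the level in AOS-14 may be up to 0.01998%.

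Of 31396 promoter windows in the RefSeq table of GRCm38.p6, each from 250 bases before to 50 after a gene's start, 1 held a very deep CpG. It belongs to R3hdm2, which encodes a protein with an R3H nucleic acid-binding domain, and lies at chr10:127380418-127380717 on the plus strand. The very deep CpG is in capitals.
R3hdm2: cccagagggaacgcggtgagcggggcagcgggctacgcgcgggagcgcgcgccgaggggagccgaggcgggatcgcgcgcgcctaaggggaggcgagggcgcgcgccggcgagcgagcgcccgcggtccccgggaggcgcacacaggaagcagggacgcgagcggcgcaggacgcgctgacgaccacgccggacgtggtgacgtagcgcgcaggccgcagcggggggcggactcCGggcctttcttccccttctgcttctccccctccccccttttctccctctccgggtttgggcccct
This CpG, in CCGG at 127380652 and base 235 of the window, had 4676 reads in A129-2 and 3114 in AOS-14, of which 96.1% in A129-2 were of the plus strand. The other 37 tested CpGs of the window had 20 to 256 and 18 to 249 reads. It stood at 11.98% in A129-2 against 18.4% in AOS-14 (Benjamini-Hochberg adjusted p = 6.49e-13 from the exact Fisher's test), a difference of -6.42 points, while the other CpGs had means of 1.64% and 1.85%.

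Loci higher in A129-2 were few and their rises small. The widest rises of a locus mean were 1.43 points in Gm39816, 1.17 in Gm30770 and 1.05 at 74.4 kb from Gm6863, all on chromosomes 11 and 12. After them came 0.706 at 41.5 kb from Atp10b and 0.513 at 43 kb from Gm4936. The next was 0.402 at 187 kb from Amd2, a locus other than the one above. The widest rise of a single CpG, 4.10 points, was at the first very deep CpG of the ribosomal locus, in CCGG, with 8.27% of 2720 reads in A129-2 and 4.17% of 6117 in AOS-14.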

How the data were processed

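Per the file headers, each line has a table that lists CpGs by position. The authors deposited read counts (all reads and methylated reads, both strands and each strand) and the level as a fraction, which equalled methylated over all reads within 0.0005 at every row. The tool BSMAP and the build mm10 are given in the submitters' processing notes, with the version and the handling of reads that fit several places not given in the sources used here. Loss of such reads, their random placement or their placement at the first fit would change which places are deep.

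Levels were recomputed from the counts. Read totals summed over CpGs were 153035567 at 1699405 CpGs in A129-2 and 178315194 at 1819756 in AOS-14. A read that covers several CpGs counts at each, here and in the shares of reads and the ratio of the libraries. Fisher's exact test was run on CpGs with at least 10 reads in both, called at an adjusted p under 0.05 and 25 points. The test was checked on simulated data. Gene positions are those of RefSeq on GRCm38.p6, matched by symbol and without strand, with no genome and no repeat annotation used here. Members, units and lists were chosen with earlier results of these data known. Genes named are those at or nearest to the 12 loci with most members, the 6 highest and 6 lowest read ratios among loci of at least 2 CpGs and the 6 widest differences each way. Listed genes within 10 kb of a member were named as well. The lists were ribosomal, small RNA, satellite, histone and multicopy, the last in part by name start alone. Satellite and histone names had no match in the annotation. Cdk8, Wars, Taco1, R3hdm2, Gm33780, Oprm1, Hace1, Gm6494, Gm9535, Gm31227 and Gm5960 were chosen after their values were seen. The software was numpy 2.4.6, pandas 2.3.3, numba 0.67.0 and scipy 1.17.1 under Python 3.11.15, with matplotlib 3.10.9.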

Additional observations from a re-analysis of the deposited data

Results flagged for a closer look

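Chromosomes outside the comparison also held CpGs of 2000 or more reads in each library. The X chromosome had 3, with means of 13.5% in A129-2 and 31.9% in AOS-14 and median totals of 2506 and 7947 reads. The Y chromosome had 2, with 10.6% and 35.8% and medians of 3213.5 and 2358 reads. The mitochondrial genome had 8, with 5.57% and 7.29% and medians of 41718 and 33406 reads. They stand out because these chromosomes were left out of the tests above, and neither library is a control for the other.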

How the results depend on the processing

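No paired analysis was possible because each line has 1 library and no replicate number. The number of very deep CpGs was 5732 with a minimum of 1000 reads and 1298 with 4000, and that of loci 689 when joined within 100 bp. Called lower were 706 with a minimum of 10 points, 1656 with none and 11 without chromosome 10, an alternative chosen after seeing the data. Called higher were 24 with no minimum. The direction of the mean difference held in all 10 alternatives, while its size did not.

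Means in A129-2 and AOS-14 and their difference were 11.4%, 29.4% and -17.96 points weighted by reads, 12.5%, 22.6% and -10.1 as means of locus means, 7.70%, 17.1% and -9.40 without CCGG, and 11.1%, 21.98% and -10.9 without the ribosomal locus. They were 11.8%, 20.8% and -9.01 with a minimum of 1000 reads, 8.52%, 20.1% and -11.6 with 4000, 10.2%, 20.06% and -9.87 on the plus strand and 10.2%, 17.5% and -7.35 on the minus strand. Without chromosome 10 they were 6.46%, 8.84% and -2.37, and with 1 value per distinct order of steps 10.5%, 18.7% and -8.18, both chosen after seeing the data. The median read ratio was 1.28 divided by that of the libraries, 0.995 with a minimum of 1000 reads, 1.12 without the ribosomal locus and 0.915 without chromosome 10. The causes were not tested. Counting error is small at this depth, and the lack of replicates leaves the differences without a check.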

Other observations

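The lowest read ratio of a single very deep CpG was 11.7 kb from Gm5960 on chromosome 15 (75086731, in CCGG), with 21677 reads in AOS-14 against 4516 in A129-2, so that the ratio was 0.208. Its level was 9.10% and 18.2%. In the table of A129-2 alone 2994 autosomal CpGs had at least 2000 reads and in that of AOS-14 3431, and those deep in both held 17.0% and 17.4% of all autosomal CpG reads.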
